A study of Mus musculus with 6 samples.

Results

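The genes described here encode nuclear-encoded subunits of the mitochondrial respiratory chain. They are 41 named genes of complexes I to IV and cytochrome c. The list names no subunit of ATP synthase (complex V), so those genes are given as a separate group. Of the 41 genes, 39 had a probe set annotated to that gene only, and all 39 reached the intensity filter, among 12994 genes tested in all. Ndufs6 was read only by a probe set shared with Ndufs6b, and Cox7b was not analysed here.

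Transcript levels came from Affymetrix mouse expression arrays of epithelial cells that had been detached with EDTA and vortexing from small intestine, taken from C57BL/6 mice of 14 days. The 3 replacement samples carried the genotype Ecadflox/Ncad;Vil-Cre: one E-cadherin allele is floxed, the other holds N-cadherin, and Cre driven by the villin promoter deletes the floxed copy in gut epithelial cells. The 3 control samples were E-cadherin-positive littermates whose alleles and Cre status are not given further. Whether each sample is 1 animal is not stated, and the p-values below reflect sample-to-sample spread, which may be technical.

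The respiratory chain carries electrons from NADH and succinate to oxygen and pumps protons across the inner mitochondrial membrane, which drives ATP synthesis. Complexes I and II pass electrons to coenzyme Q, complex III passes them to cytochrome c, and complex IV (cytochrome c oxidase) hands them to oxygen. Apart from complex II, each complex joins subunits encoded in mitochondrial DNA with nuclear-encoded ones, and many nuclear-encoded subunits are small accessory proteins that stabilise the complex. Enterocytes, the absorptive cells of the villus, are rich in mitochondria, as they spend ATP on nutrient and ion transport.

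The upstream sequence is shown for 3 members: Cox6b2, the 1 member called, its paralogue Cox6b1, and Ndufa5. Ndufa5 was one of the complex I genes with the largest differences, none of which was called. Each run holds the 250 bases before the RefSeq gene start on GRCm38.p6, 5′ to 3′ on the strand of the gene. Capitals mark matches, on either strand, to the NRF-1 motif (GCGCA, any base, GCGC), the ETS motif CCGGAAG, the YY1 motif AAGATGGC or the CCAAT box. NRF-1 and the ETS factor GABP are known regulators of nuclear genes for mitochondrial proteins.

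Cox6b2 (chr7:4753095-4753344, minus strand): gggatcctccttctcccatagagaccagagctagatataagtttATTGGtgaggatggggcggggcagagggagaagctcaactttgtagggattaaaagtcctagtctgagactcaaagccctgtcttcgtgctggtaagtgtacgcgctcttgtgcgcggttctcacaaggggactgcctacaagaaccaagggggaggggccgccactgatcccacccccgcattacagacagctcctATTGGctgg
Cox6b1 (chr7:30626115-30626364, minus strand): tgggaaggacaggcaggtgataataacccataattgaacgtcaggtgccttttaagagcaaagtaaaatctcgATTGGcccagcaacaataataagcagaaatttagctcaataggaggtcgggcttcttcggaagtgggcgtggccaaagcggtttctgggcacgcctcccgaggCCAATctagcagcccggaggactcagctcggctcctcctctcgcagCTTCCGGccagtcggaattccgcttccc
Ndufa5 (chr6:24527691-24527940, minus strand): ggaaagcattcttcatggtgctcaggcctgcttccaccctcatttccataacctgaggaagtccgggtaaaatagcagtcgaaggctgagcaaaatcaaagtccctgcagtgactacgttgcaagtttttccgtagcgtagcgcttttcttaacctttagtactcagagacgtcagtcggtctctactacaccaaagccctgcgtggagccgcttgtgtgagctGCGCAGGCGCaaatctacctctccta

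The Cox6b2 window held 2 CCAAT matches and no NRF-1 or ETS match, whereas that of Cox6b1 held an ETS match and 2 CCAAT matches. Of the 39 members 29 had an upstream window in the RefSeq table, and Ndufa5 had a pair of starts, of which the one further upstream is shown. An NRF-1 match lay in 5 of the 29 (17.2%), those of Cox6a1, Ndufa5, Ndufa8, Sdha and Sdhd, against 4.23% of 27025 genes with such a window. An ETS match lay in 4 of the 29 (13.8%), against 7.83% of all. The CCAAT box lay in 9 (31.0%), against 37.5%, and the YY1 motif in none, against 1.83%. The NRF-1 genes differed among themselves in the expression data below: Ndufa5 had a log2 difference of -1.01, Ndufa8 of -0.45, and Sdha of 0.15. Ndufa1, a complex I gene with a difference of -1.05, had an upstream window with no match to any of these motifs.

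The labels and arrays were checked first. Cdh1, which encodes E-cadherin, had intensities of 1073, 1175 and 1357 on the replacement arrays and of 2757, 2335 and 2204 on the control arrays, a log2 difference of -1.06 (SE 0.240, limma adjusted p = 0.0250), or -1.05 without replacement 2 (adjusted p = 0.0825). Cdh2, which encodes N-cadherin, read at most 13.5 on every array, below the floor of 16 intensity units used here, and so does not check the labels. All 9 epithelial markers were above that floor. Their summed intensity was 25521 to 31082 on the replacement arrays and 21782 to 22999 on the control arrays. The keratin genes Krt20 (1.35), Krt18 (0.76) and Krt8 (0.40) had the largest log2 differences among them. The rest lay between -0.01 and 0.25, and Krt20 alone was called (limma adjusted p = 0.0274). Red cell markers summed to at most 39.2 in replacement and 52.2 in control arrays. Over 5109 bright probe sets the log2 values of control 2 and control 3 differed with an SD of 0.115, against 0.347 to 0.564 for the other pairs within a group, and were averaged as 1 replicate, which left n = 3 replacement and n = 2 control replicates. Xist and Y-linked genes put replacement 1 with control 2 and control 3 among males and replacement 2 and replacement 3 with control 1 among females. For the genes described here replacement 2 stood apart from the other arrays, and differences and medians without it stand beside the results they bear on. That array was singled out by its low values for these same genes. Leaving it out therefore had to raise each difference for which it was the lowest replacement array. Medians without replacement 1, the highest replacement array for 36 of the 39 members, are given for the complexes as well. Leaving that array out had to lower the differences of those 36.

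Among the 39 subunits 1 fell in the replacement epithelium and none rose at a limma adjusted p under 0.05, where 4.66% of all genes tested fell, 4.46% rose and 9.12% did either. At an unadjusted p under 0.05, 5 subunits were lower and none higher, against 12.9% and 11.4% of all genes. The gene that fell was Cox6b2, an isoform of a small complex IV subunit. The other members had differences between -1.13 and 0.20, and 32 of the 39 differences were below 0, against 52% of all genes. The median difference was -0.41 on the log2 scale, and over all genes it was -0.02. The low values were unequal between the replacement arrays: without replacement 2 the median of the members was -0.15, without replacement 1 it was -0.67 and without replacement 3 it was -0.38. In bulk RNA, fewer cells of a type and less RNA per cell cannot be told apart.

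**Figure D1:**
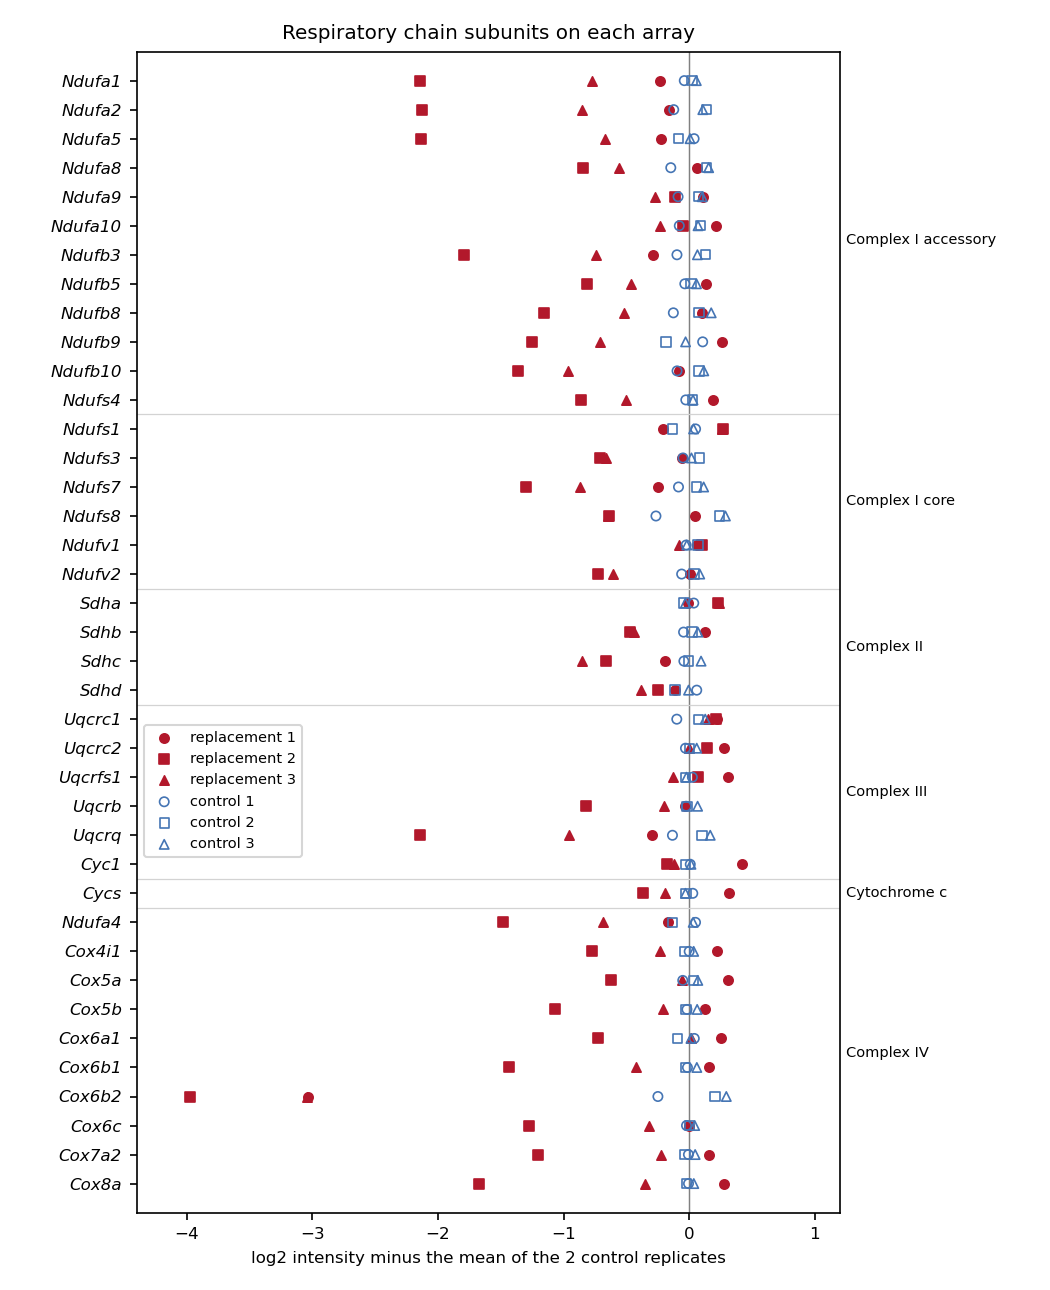
Log2 intensity of each of the 39 subunits on each array, minus the mean of the 2 control replicates, by complex. Filled red symbols are the replacement arrays and open blue symbols the control arrays. Replacement 2 (squares) lies far to the left for many complex I accessory and complex IV genes, while Cox6b2 is low on all 3 replacement arrays.

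Cox6b2 encodes one of the alternative forms of subunit VIb of cytochrome c oxidase, a protein on the intermembrane space side of the enzyme that is best known from testis. Its probe set read 30.7, 15.1 and 30.4 on the replacement arrays, against 211, 289 and 308 on the control arrays. The groups did not overlap, and replacement 2 lay under the floor. With that array set to the floor Cox6b2 was at least 10.2-fold lower in the replacement samples (log2 difference -3.35 or beyond, SE 0.333, limma adjusted p = 5.88e-04, n = 3 and 2). The difference was -3.04 without replacement 2 (adjusted p = 0.00248), where neither remaining replacement array lay under the floor. It was -3.28 within males and -3.26 or beyond within females, each against 1 control replicate. It missed the threshold with dim probe sets kept in the test (adjusted p = 0.0930), in the fit that omitted control 1 (-3.60, adjusted p = 0.0804) and in the one that omitted the averaged pair of control 2 and control 3 (-3.10, adjusted p = 0.121). Fits that omit a control replicate keep a single one, whose spread is taken to equal that of the replacement samples.

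The ubiquitous form, Cox6b1, read 3526, 1170 and 2358 on the replacement arrays and 3126, 3090 and 3293 on the control arrays. Replacement 1 was thus above every control array, and the other 2 were below them. Its difference was -0.56 (SE 0.404, limma adjusted p = 0.445), and -0.13 without replacement 2. A second probe set of Cox6b1 gave -0.41. Both genes lie on chromosome 7 but apart from each other. Among the 3 protein-coding genes on either side of Cox6b2, which were chosen after its value was seen, 3 were tested. Kmt5c, a histone H4 methyltransferase gene next to it, read 112, 105 and 100.3 on the replacement arrays and 240, 177 and 183 on the control arrays, a difference of -0.98 (SE 0.240, limma adjusted p = 0.0354), or -0.97 without replacement 2 (adjusted p = 0.106). Tmem150b (-0.27, adjusted p = 0.591) and Brsk1 (-0.51, adjusted p = 0.455), on the same side, did not pass. Il11 and Tmem190, on the other side, did not reach the filter.

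**Figure D2:**
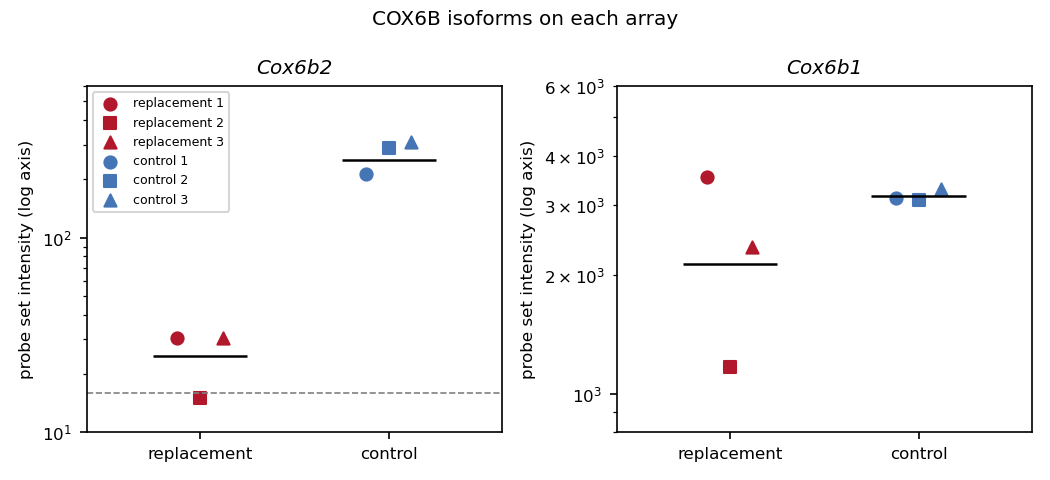
Probe set intensity, on log axes of different range, of Cox6b2 and Cox6b1 on each array, with replacement left of control. Lines are geometric means over replicates, and the dashed line is the floor of 16. The replacement arrays of Cox6b2 lie at 15.1 to 30.7 and its control arrays at 211 to 308, while those of Cox6b1 overlap between the groups.

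In complex I, which oxidises NADH, no member passed the test. Of the 12 accessory subunits tested all had differences below 0, with a median of -0.55 (range -1.05 to -0.02). The median was -0.23 without replacement 2 and -0.91 without replacement 1. Ndufa1, a small membrane-bound subunit needed for assembly of the complex, read 1859, 493 and 1274 on the replacement arrays and 2120, 2214 and 2265 on the control arrays. All of its replacement arrays lay below the control arrays, replacement 2 by far the most. Its difference was -1.05 (SE 0.470, limma adjusted p = 0.207), and -0.50 without replacement 2. Ndufa2, an accessory subunit of the matrix arm, read 1135, 291 and 705 on the replacement arrays and 1167, 1400 and 1370 on the control arrays (-1.05, SE 0.475, adjusted p = 0.214), or -0.51 without replacement 2. Its probe set may cross-hybridize, by the suffix of its name. Replacement 1 lay just under control 1 there.

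Ndufa5, of the matrix arm as well, read 556, 148 and 409 on the replacement arrays and 668, 614 and 654 on the control arrays (-1.01, SE 0.474, limma adjusted p = 0.227), or -0.45 without replacement 2. A second probe set gave -1.25, in the same direction. Ndufb3, of the membrane arm, read 632, 222 and 460 on the replacement arrays and 720, 843 and 806 on the control arrays (-0.94, SE 0.395, adjusted p = 0.177), or -0.52 without replacement 2. These 4 accessory subunits had no overlap between replacement and control arrays, and replacement 2 gave the lowest value of each. Ndufb10 (-0.80, SE 0.355, adjusted p = 0.202, or -0.52 without replacement 2) overlapped, since replacement 1 (844) stood above control 1 (835). Ndufa9, at the junction of the 2 arms, and Ndufa10 had -0.09 (SE 0.239) and -0.02 (SE 0.243). A second, dim probe set of Ndufa10 gave -0.83. It read 8.2 to 19.1 on the replacement arrays, with replacement 3 under the floor, and 26.2 to 40.9 on the control arrays. The probe set that Ndufs6 shares with Ndufs6b read 1365, 335 and 755 on the replacement arrays and 1173, 1404 and 1393 on the control arrays, and it was not tested as it belongs to more than one gene.

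The 6 core subunits of complex I that were listed hold the flavin and iron-sulphur clusters or the coenzyme Q site. Their median was -0.43 (range -0.81 to 0.11), or -0.30 without replacement 2 and -0.66 without replacement 1. Ndufs7, which carries the last iron-sulphur cluster before coenzyme Q, read 1113, 538 and 724 on the replacement arrays and 1247, 1376 and 1433 on the control arrays. The groups did not overlap, and the difference was -0.81 (SE 0.315, limma adjusted p = 0.149), or -0.56 without replacement 2. A second probe set of Ndufs7 gave -1.07. Ndufs3, a core subunit of the same region, read 1015, 648 and 668 on the replacement arrays and 1023, 1121 and 1072 on the control arrays (-0.48, SE 0.269, adjusted p = 0.319, or -0.36 without replacement 2), with replacement 1 just under the lowest control array. Ndufv1, the subunit that binds FMN and NADH, had 0.03 (SE 0.225), and Ndufs1, the large iron-sulphur subunit, 0.11 (SE 0.250). Ndufs1 was the one core subunit with its lowest replacement array in replacement 1 (469), below control 2 (493), while replacement 2 and replacement 3 stood at 653 and 651.

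In complex II, succinate dehydrogenase, which also works in the tricarboxylic acid cycle, none of the 4 subunits passed. Their median was -0.26, or -0.20 without replacement 2 and -0.39 without replacement 1. Sdhc, one of the membrane anchors, read 1062, 768 and 671 on the replacement arrays and 1180, 1208 and 1297 on the control arrays (-0.57, SE 0.264, limma adjusted p = 0.221), or -0.53 without replacement 2. The other anchor, Sdhd, read 1410, 1285 and 1168 on the replacement arrays and 1592, 1412 and 1522 on the control arrays (-0.25, SE 0.230, adjusted p = 0.563), and again -0.25 without replacement 2. Neither gene overlapped between the groups, though replacement 1 and control 2 of Sdhd were almost equal. A second probe set of Sdhc had the opposite sign (0.17). The catalytic flavoprotein Sdha had 0.15 (SE 0.230) and the iron-sulphur subunit Sdhb -0.26 (SE 0.263), and both overlapped between the groups.

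Complex III had members on both sides of 0, with a median of 0.06. The median was -0.09 without replacement 1, 0.11 without replacement 2 and 0.16 without replacement 3, so its sign turned on 1 array. Uqcrc1, a large core protein, read 2350, 2347 and 2246 on the replacement arrays and 1886, 2123 and 2207 on the control arrays. It was the 1 member whose replacement arrays all lay above the control arrays, by a small margin (0.20, SE 0.226, limma adjusted p = 0.658), and had 0.19 without replacement 2. The other core protein Uqcrc2 (0.14), the Rieske iron-sulphur protein Uqcrfs1 (0.08) and cytochrome c1, Cyc1 (0.04), overlapped. Uqcrq, a small accessory subunit, read 1579, 439 and 995 on the replacement arrays and 1765, 2075 and 2174 on the control arrays. Its groups did not overlap, and it had the largest difference after Cox6b2 (-1.13, SE 0.454, adjusted p = 0.159), or -0.63 without replacement 2.

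The Uqcrq probe set may cross-hybridize. Of its dimmer probe sets, one with 26.2 to 37.7 on the replacement and 24.6 to 35.6 on the control arrays gave 0.06. The other, with 16.8 to 20.5 on the replacement and 22.8 to 31.4 on the control arrays, gave -0.52. Uqcrb, another small accessory subunit, read 4383, 2537 and 3908 on the replacement arrays and 4417, 4438 and 4705 on the control arrays. Its difference was -0.35 (SE 0.282, limma adjusted p = 0.497), or -0.12 without replacement 2, with replacement 1 just under the lowest control array. A second Uqcrb probe set, with 474 to 1070 on the replacement and 1251 to 1516 on the control arrays, gave -0.82. Cycs, the mobile carrier cytochrome c, read 4359, 2715 and 3067 on the replacement arrays and 3575, 3442 and 3434 on the control arrays. The groups overlapped, with replacement 1 highest, and the difference was -0.08 (SE 0.267, adjusted p = 0.890), or 0.06 without replacement 2.

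In complex IV all 10 tested members had differences below 0, with a median of -0.48. The median was -0.04 without replacement 2 and -0.76 without replacement 1. On all 10 genes replacement 2 was the lowest and replacement 1 the highest of the replacement arrays. Cox8a, a small membrane-spanning subunit, read 2028, 524 and 1308 on the replacement arrays and 1665, 1644 and 1714 on the control arrays. Replacement 1 stood above and the other 2 below all control arrays, and the difference was -0.58 (SE 0.473, limma adjusted p = 0.505), or -0.04 without replacement 2. Ndufa4, first assigned to complex I and later found in complex IV, read 1659, 666 and 1161 on the replacement arrays and 1931, 1703 and 1906 on the control arrays. It was the 1 member of the complex besides Cox6b2 with no overlap (-0.78, SE 0.356, adjusted p = 0.216), or -0.43 without replacement 2.

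Cox4i1 (-0.26, SE 0.304) and Cox5a (-0.12, SE 0.296), which contact the catalytic core, had the nearest differences to 0 together with Cox6a1 (-0.15, SE 0.309). The remaining members Cox5b, Cox6c and Cox7a2 had -0.38, -0.53 and -0.42, and -0.04, -0.16 and -0.03 without replacement 2. Of all 39 members, 5 had a difference of -1 or beyond, and without replacement 2 this was 1, Cox6b2.

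**Figure D3:**
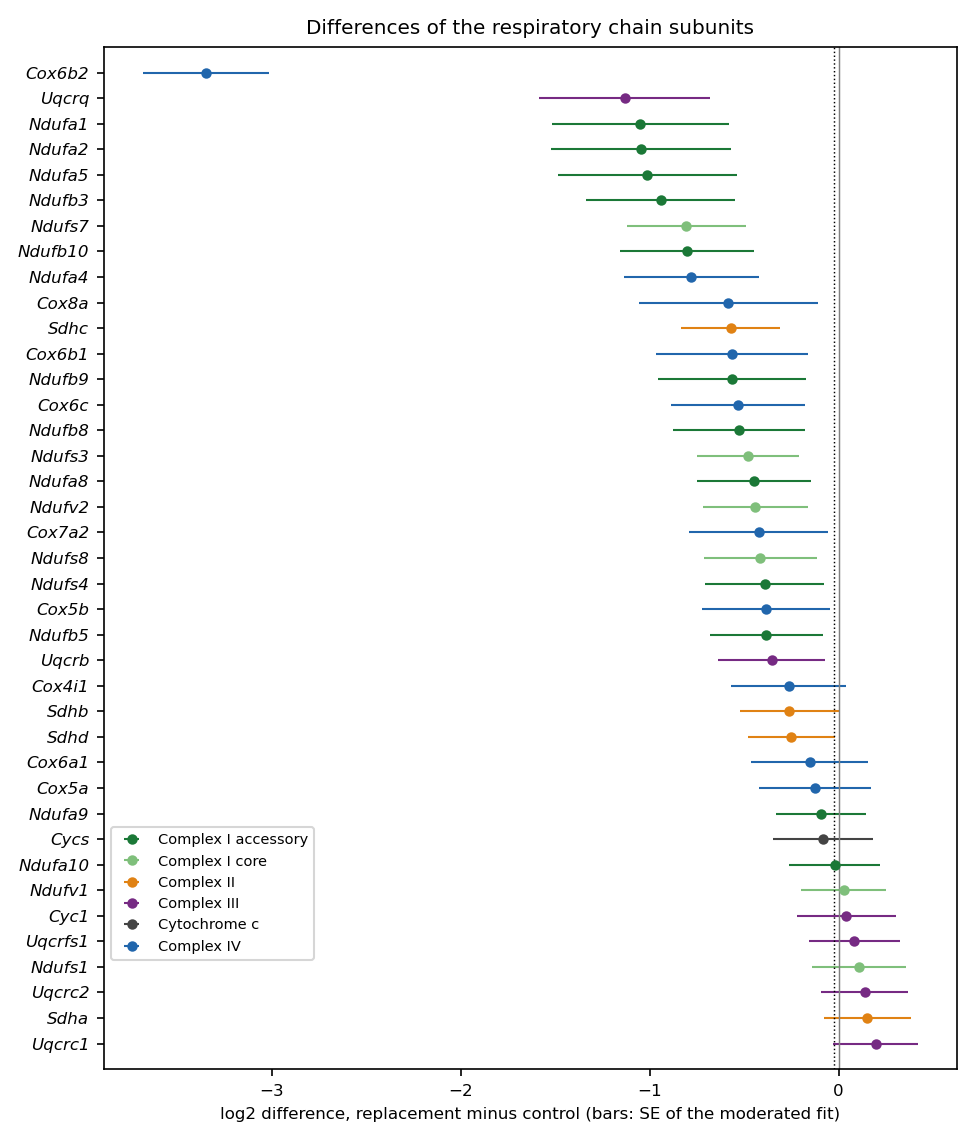
Log2 difference, replacement minus control, of each subunit with its SE from the moderated fit (n = 3 replacement and n = 2 control replicates), ordered by size and coloured by complex. The dotted line is the median of all genes tested (-0.02). Cox6b2 lies at -3.35, and the other members lie between -1.13 and 0.20.

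The replacement arrays of the members fell into an uneven pattern. Replacement 2 was the lowest of the 3 for 28 of the 39 members, against 29.9% of all genes, and replacement 1 was the highest for 36, against 35.8% of all genes. Relative to the control replicates the median member stood at 0.07 on replacement 1, at -0.81 on replacement 2 and at -0.42 on replacement 3, and at -0.03, 0.01 and 0.06 on control 1, control 2 and control 3. Over all genes these medians lay between -0.05 and 0.01. Replacement 1 lay above all control arrays for 18 members, against 33.4% of all genes, and below all for 13, against 33.6%. Replacement 2 lay below all for 32 members, against 36.2% of all genes, and replacement 3 for 34, against 35.5%. The members whose groups did not overlap numbered 12 lower, against 18.8% of all genes, and 1 higher, against 17.8%.

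The spread was wide in one group only. The SD of the log2 values had a median over members of 0.478 across the replacement arrays and of 0.0640 across the control replicates, and over all genes of 0.266 and 0.183. It was the larger one in the replacement group for 38 of the 39 members. The SE of the members in the moderated fit was 0.225 to 0.475.

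**Figure D4:**
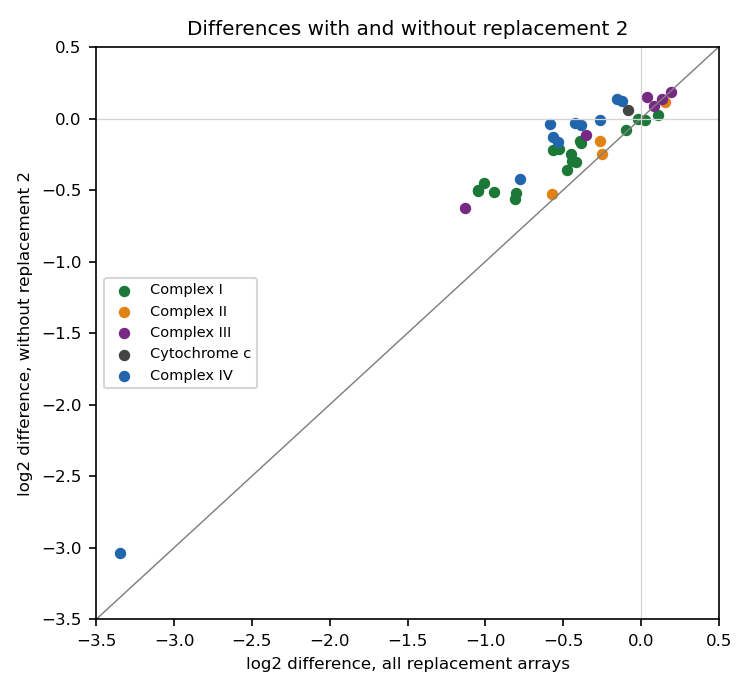
Log2 difference of each subunit with all replacement arrays (horizontal) and without replacement 2 (vertical), coloured by complex, with the line of equality. Most complex I and IV genes lie above the line, nearer to 0 without that array, and Cox6b2 stays at -3.04.

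Other measures of the same arrays are given beside this pattern. Enterocyte markers, 9 of 10 with a probe set and none under the floor on all arrays, summed to 39802 on replacement 1, 28093 on replacement 2 and 34854 on replacement 3, and to 35723 to 39722 on the control arrays, and replacement 2 was the lowest replacement array for 8 of the 9. The beta-actin ratio of the 3′ over the 5′ probe set was 1.10 to 1.24 in replacement and 1.30 to 1.35 in control arrays, and that of Gapdh 0.660 to 0.715 in replacement and 0.651 to 0.774 in control arrays. The 5′ probe set of 18S ribosomal RNA read 1407, 1598 and 1462 on the replacement and 914 to 1019 on the control arrays. Crypt and proliferating cell markers summed to 5089 to 6023 in replacement and 5318 to 6037 in control arrays, a sum that hid opposite shifts. Of 7 tested, Lgr5, Olfm4 and Axin2 were lower with no overlap, against 18.8% of all genes. Mki67, Top2a and Pcna were higher with no overlap, against 17.8%, and none of the 7 was called. Fibroblast markers summed to 328 to 429 in replacement arrays, against 1087 on control 1, 162 on control 2 and 171 on control 3. Immune markers, with Cd3e under the floor, summed to 290 to 442 in replacement arrays, against 620 on control 1, 251 on control 2 and 236 on control 3. Control 1, the 1 female control array, thus stood above the other control arrays in both. Between the sexes the median member stood at 0.02 in males, with replacement 1 alone, and at -0.61 in females. With 1 replacement and 1 control replicate in males, a limma interaction test of sex and group called 0 of 12994 genes at an adjusted p under 0.05, and 7.80% at an unadjusted p under 0.05, with no member among them. It therefore does not show that the sexes were alike. The part of these measures in the members' differences was not tested.

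The rest of the oxidative phosphorylation machinery is given from lists of its other genes. Of 21 further chain subunits 18 were tested and none passed, 5 being lower at an unadjusted p under 0.05. All 18 had differences below 0, with a median of -0.82 (range -1.33 to -0.24). The median was -0.40 without replacement 2, the lowest replacement array for 17, and -1.16 without replacement 1. The 16 ATP synthase genes, which encode the enzyme driven by the proton gradient and its inhibitor Atpif1, had a median of -0.49. None passed, and the median was -0.12 without replacement 2 and -0.90 without replacement 1. The subunit genes Atp5a1 and Atp5b had 0.33 (SE 0.225) and 0.12 (SE 0.242), and the small subunit Atp5e -1.16 (SE 0.504), chosen after their values were seen. Of 5 tested tissue-restricted or alternative subunit isoforms none passed. Their median was -0.52, or 0.12 without replacement 2 and -0.70 without replacement 1, so that its sign turned on replacement 2.

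Among 41 assembly factors 38 were tested and none passed, with a median of -0.17, or -0.10 without replacement 2. Cox17, Cox19 and Cox20, which take part in the supply of copper to complex IV or the maturation of its catalytic subunits, had the lowest values of that list, and were chosen after these were seen. Cox17 read 866, 254 and 688 on the replacement arrays and 1439, 1706 and 1680 on the control arrays (-1.55, SE 0.455, limma adjusted p = 0.0655), or -1.02 without replacement 2. Cox19 read 545, 251 and 254 on the replacement arrays and 719, 903 and 919 on the control arrays (-1.31, SE 0.355, adjusted p = 0.0507), or -1.12 without replacement 2. Neither overlapped between the groups, and both missed the threshold.

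Lists of other mitochondrial functions had medians nearer to 0 than the subunits, a difference that was not tested. It was smaller without replacement 2, where the subunits had -0.15. Without replacement 1 the subunits had -0.67, and the medians of these lists ran from -0.22 (mitochondrial ribosomal proteins) to 0.10 (tricarboxylic acid cycle). The 18 tested tricarboxylic acid cycle enzymes and genes around the cycle had a median of 0.11, with 12 above 0, or 0.03 without replacement 2. Pcx, pyruvate carboxylase, which refills the cycle with oxaloacetate, was the 1 gene that rose (1.28, SE 0.278, limma adjusted p = 0.0213), and it kept its call without replacement 2 (1.45, adjusted p = 0.0345). In coenzyme Q synthesis and handling, with a median of -0.07 over 10 genes, or -0.04 without replacement 2, Pdss2, a subunit of the enzyme that makes the isoprenoid tail, rose (0.98, SE 0.261, adjusted p = 0.0472) and Coq10a, a coenzyme Q binding protein, fell (-1.26, SE 0.275, adjusted p = 0.0213). Without replacement 2 Pdss2 missed the threshold (0.86, adjusted p = 0.153), and Coq10a lay just within it (-1.38, adjusted p = 0.04998).

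Among 20 regulators of mitochondrial gene expression, with a median of -0.07, or 0.00 without replacement 2, Polg, the polymerase that copies mitochondrial DNA, fell (-0.97, SE 0.226, limma adjusted p = 0.0282) and the transcription factor Myc rose (1.13, SE 0.294, adjusted p = 0.0429). Both missed the threshold without replacement 2, Polg with -0.92 (adjusted p = 0.0987) and Myc with 0.90 (adjusted p = 0.127). The 74 tested mitochondrial ribosomal protein genes had a median of -0.05, or 0.04 without replacement 2, and none passed. A pair of lists was added after these values were seen. Cytosolic ribosomal proteins had a median of -0.09 over 41 genes, or 0.16 without replacement 2, with medians per array of 0.32, -0.63 and 0.02 on replacement 1, replacement 2 and replacement 3, and replacement 2 was the lowest replacement array for 37. The 31 constitutive proteasome genes had 0.33, 0.33 and -0.03 on those arrays, and replacement 2 was the lowest for 7.

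**Figure D5:**
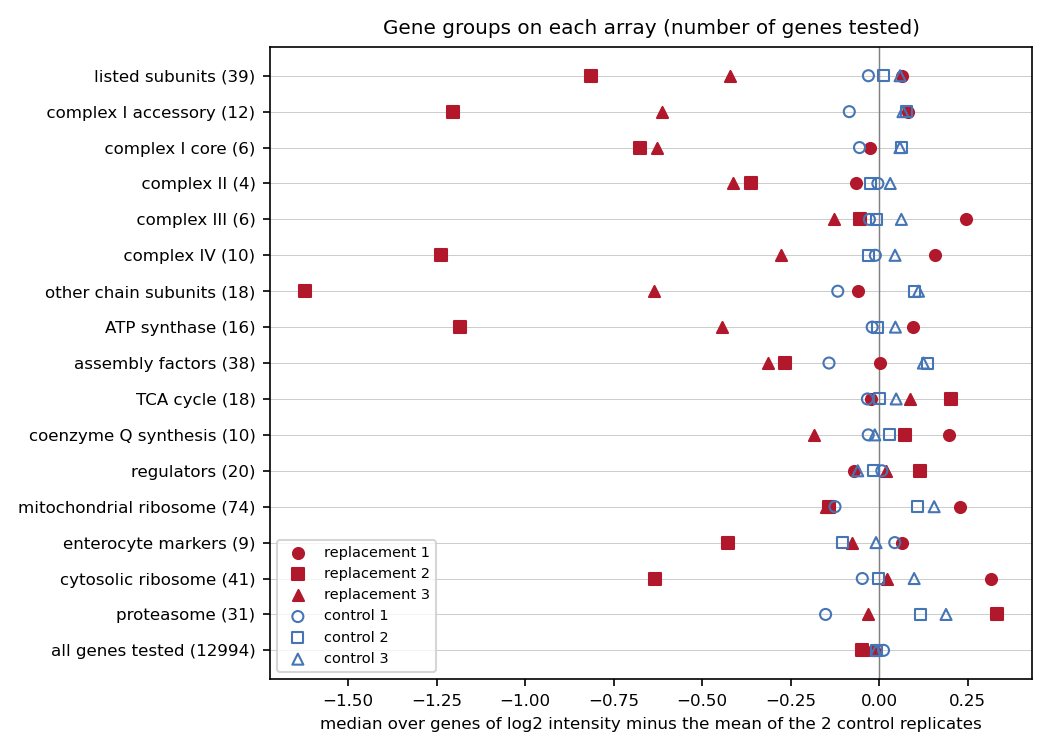
Median over the genes of each group of the log2 intensity minus the mean of the 2 control replicates, on each array, with the number of genes tested. Filled red symbols are replacement and open blue symbols control arrays. On replacement 2 the listed subunits lie at -0.81, the other chain subunits at -1.62, ATP synthase at -1.18 and the cytosolic ribosome at -0.63, while the tricarboxylic acid cycle lies at 0.20.

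Probe sets of the same gene were compared where a member had several. This was so for 24 members, and for 8 of them (Ndufs4, Ndufv1, Sdhc, Uqcrq, Cycs, Cox5a, Cox5b and Cox8a) they lay on both sides of 0. The median range between the probe sets of a gene was 0.30 on the log2 scale, and Uqcrq had the largest (1.19). Cox8a had 2 bright probe sets, with -0.58 and -0.75, and a dim one at 0.35. Taking the probe set with the smallest difference for each gene moved the median of the members to -0.17. Cox6b2 and 14 other members were read by 1 probe set.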

How the data were processed

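The deposited values are intensities of 45101 probe sets on 6 arrays, on a linear scale although log2 values had been planned for. Each array's trimmed mean, leaving out 2% at either end, came to 100. The submitters' processing notes name GCRMA and limma, with no role, and how the intensities were summarised is not given there. Values were floored at 16 and log2 was taken. A probe set was kept with at least 3 arrays at 16 or above, and the brightest kept probe set with 1 gene symbol in the platform annotation stood for its gene, with symbols updated to GRCm38.p6. Differences were fitted over all 12994 genes with limma 3.58.1 in R 4.3.3 (lmFit, eBayes) on 3 replacement and 2 control replicates, control 2 and control 3 averaged, with Benjamini-Hochberg adjustment and a threshold of 0.05. The steps were tested on simulated data. The number of arrays limits the precision. Values on every array are given for members that passed the threshold, did not overlap between the groups or had the largest absolute difference in their complex. Others shown for contrast were chosen after their values were seen. In related lists up to 4 called genes with the smallest p are named. Members and lists were chosen with earlier results of these data known. Alternatives were eBayes options, filters, no floor, 2 normalizations, the choice of probe set, array weights, blocks, and arrays left out. Figures used matplotlib 3.10.9.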

Additional observations from a re-analysis of the deposited data

How the results depend on the processing

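Of 20 alternatives, 17 kept the call of Cox6b2, whose log2 difference ranged from -3.60 to -2.71. It was lost when dim probe sets were not filtered out (-3.35, adjusted p = 0.0930), without control 1 (-3.60) and without control 2 and control 3 together (-3.10), so that 0 members were called lower in these fits, in which 92, 3 and 1 of all genes were. Leaving out arrays gave 0 to 4 members called lower, and the differences of Cox6b2 ranged from -3.60 to -3.04. Without replacement 1 the members called were Cox6b2, Ndufb10, Ndufs7 (-1.09, limma adjusted p = 0.0331) and Uqcrq (-1.55, adjusted p = 0.0423). In that fit 833 of all 12994 genes were called lower. Replacement 1 was the highest replacement array for each of these members, so leaving it out had to lower their differences. No alternative called a member higher. The median of the members stayed below 0 in all 20 (-0.67 to -0.15). With the probe set of smallest difference Sdhc (0.17), Uqcrq (0.0560), Cycs (0.00168), Cox8a (0.35), Cox5b (0.23), Cox5a (0.0234) and Ndufv1 (-0.0075) changed sign. Cycs did so with the mean of its probe sets (0.0699), and over arrays left out it ranged from -0.281 to 0.0606, the value without replacement 2. The cause was not tested. Deviations from the group means were hardly correlated between arrays of the same replicate number (-0.02, -0.00082 and -0.05). As control 2 and control 3 were nearly alike, this cannot show whether the samples were paired. The replicate block on all 6 arrays gave a median of -0.43 and -3.43 for Cox6b2 (limma adjusted p = 1.72e-04), with 0 members called higher and 1 lower. With sex as a block the median was -0.31 and Cox6b2 had -3.27. Over all genes, calls of 580 higher and 605 lower became 994 and 1108 with the replicate block, 1118 and 1234 with 6 separate arrays, and 884 and 926 with array weights. They became 319 and 302 with the probe set of smallest difference, and 70 and 92 without the filter. Leaving out arrays gave 3 to 827 higher and 1 to 833 lower. Array signal limits Cox6b2, which was near the floor in the replacement samples.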
